A study of Mus musculus with 6 samples.

Results

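The TNF superfamily of ligands and receptors was examined in 3 WT and 3 KO libraries of mouse embryonic fibroblasts (MEFs), where KO stands for Mcm8 knockout. Members were taken by symbol, as the protein-coding genes whose names follow the Tnf, Tnfsf and Tnfrsf series or are the common names Cd40, Cd40lg, Cd27, Cd70, Fas, Fasl, Lta, Ltb, Ltbr, Ngfr, Eda, Edar, Eda2r and Relt. The rule used no expression value. It found 45 members among 55565 genes listed, 17 of them ligands and 28 receptors. Of the receptors, 7 carry a death domain, 17 carry none, and 4 were grouped as decoy receptors. The symbol pattern leaves out Tnfsf13b, the B-cell activating ligand BAFF, which had 8, 10 and 11 counts in WT and 4, 6 and 5 in KO (log2 fold change -1.16, SE 0.70, edgeR adjusted p = 0.383).

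Heterozygous Mcm8 mice of mixed C57BL/6J and ICR descent were crossed, and MEFs were prepared from embryo trunks at E13.5, with the head, limbs, heart and liver removed. WT embryos were Mcm8+/+ and KO embryos Mcm8-/-. All MEFs, WT and KO, had been infected with a lentivirus that carries an SV40 gene and selected with puromycin, so that both arms are immortalized cultures. MCM8 is a helicase of homologous recombination, and the stated purpose of the series was to compare gene expression with and without it. The methods call the 3 libraries of a genotype biological repeats without saying whether these were separate embryos or separate cultures of 1 line. The p-values therefore measure the spread between these libraries, which need not be the spread between embryos. Every library held both Xist and Y-linked RNA, as given below. Libraries held from 12722979 to 21022755 counts. Mcm8 RNA stood at 14.4 ± 1.99 CPM in WT and 4.26 ± 0.170 CPM in KO (SD, n = 3 each, as for all values after ±), or 29.6% of the WT level (log2 fold change -1.75, SE 0.16, edgeR adjusted p = 4.45e-26). Levels of 1 gene across libraries are given as CPM (counts-per-million after TMM scaling), and levels between genes as FPKM, which is also scaled to gene length. In bulk RNA, fewer cells of a type and less RNA per cell cannot be told apart.

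Ligands of the TNF superfamily are mostly trimers held in the membrane or shed from it, and each binds one or a few receptors. Receptors with a death domain can recruit adaptors that activate caspases, and the others recruit TRAF proteins that activate NF-kB and stress kinases. Decoy receptors bind a ligand without passing on a signal. Immune cells make most of the ligands, whereas fibroblasts are known for receptors such as the TNF, lymphotoxin and TWEAK receptors.

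Promoter sequences are shown for the 4 members that differed between genotypes with an adjusted p below 0.05 and had an entry in the RefSeq promoter table, Tnfrsf1b, Tnfrsf18, Ltbr and Tnfsf11. The 3 receptors were higher in KO and the ligand was lower. Each sequence is the 250 bases before the annotated start, read 5′ to 3′ on the gene's strand, from RefSeq on GRCm38.p6. Capitals mark matches to a GC box (GGGCGG, or CCGCCC where the match is on the opposite strand), a GAS element (TTCNNNGAA, the STAT-binding pattern) or a TATA box (TATAAA, or TTTATA on the opposite strand).
Tnfrsf1b, chr4:145246871-145247120, minus strand: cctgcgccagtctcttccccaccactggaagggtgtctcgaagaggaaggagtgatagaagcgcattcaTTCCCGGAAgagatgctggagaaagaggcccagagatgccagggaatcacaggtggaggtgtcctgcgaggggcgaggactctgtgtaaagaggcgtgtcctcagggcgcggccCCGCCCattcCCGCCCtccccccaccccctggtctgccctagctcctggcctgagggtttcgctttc
Tnfrsf18, chr4:156026072-156026321, plus strand: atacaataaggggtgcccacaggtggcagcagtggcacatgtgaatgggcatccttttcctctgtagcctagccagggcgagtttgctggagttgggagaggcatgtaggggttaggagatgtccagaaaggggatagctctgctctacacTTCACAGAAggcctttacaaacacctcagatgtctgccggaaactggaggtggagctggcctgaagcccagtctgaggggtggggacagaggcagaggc
Ltbr, chr6:125313886-125314135, minus strand: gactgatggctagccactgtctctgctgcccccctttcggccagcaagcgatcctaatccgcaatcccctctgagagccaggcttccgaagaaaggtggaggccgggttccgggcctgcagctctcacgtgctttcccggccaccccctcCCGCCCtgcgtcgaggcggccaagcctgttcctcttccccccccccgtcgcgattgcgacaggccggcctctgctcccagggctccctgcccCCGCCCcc
Tnfsf11, chr14:78308044-78308293, minus strand: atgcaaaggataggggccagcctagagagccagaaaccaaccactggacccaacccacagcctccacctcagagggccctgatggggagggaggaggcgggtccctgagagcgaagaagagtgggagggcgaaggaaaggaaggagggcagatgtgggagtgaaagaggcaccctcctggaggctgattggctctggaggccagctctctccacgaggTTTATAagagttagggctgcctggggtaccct
The Tnfrsf1b sequence held 2 GC boxes and 1 GAS element, and Tnfrsf18 held a GAS element without a GC box. Ltbr held 2 GC boxes, the nearer at 8 to 3 bases before the start. Tnfsf11 held the TATA letters at 32 to 27 bases before the start, on the opposite strand.

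The same motifs were searched on both strands in all promoters of the table, 250 bases each. Of 45 members, 35 had an entry, with 38 promoters among them. A GC box stood in 50.0% of the member promoters and in 32.7% of all 32851 promoters. The GAS letters stood in 21.1% against 7.0%, the TATA letters in 18.4% against 12.4%, and an AP-1 site (TGANTCA) in 13.2% against 6.7%. An NF-kB consensus stood in 10.5% of member promoters (Ltb, Tnfrsf8, Tnfrsf9 and Tnfrsf25) and in 7.3% of all. Matches of different motifs overlapped once among 66 in member promoters, an AP-1 site with a GC box in Tnfrsf9. Among the members with at least 1 CPM in a genotype, 66.7% of 15 promoters held a GC box, against 39.1% of 23 promoters of the other members, and their median GC contents were 56.4% and 56.0%, against 52.4% for all promoters. Their median ratios of observed to expected CpG were 0.53 and 0.39, against 0.37 for all promoters. These are counts of letters without a test, and a match is not a measured binding site. Cd40, Cd40lg, Cd70, Tnfrsf10b, Tnfrsf11b, Tnfrsf22, Tnfrsf26, Tnfsf12, Tnfsf4 and Tnfsf9 had no entry.

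The MEFs expressed receptors far more than ligands. Summed over the 28 receptors, FPKM ranged from 182 to 204 in WT and from 216 to 226 in KO, whereas the 17 ligands summed to between 6.64 and 9.32 in any library. Most of this came from a few receptors. Tnfrsf12a, the receptor of TWEAK, had 77.8 ± 7.40 FPKM in WT and 86.1 ± 3.76 in KO. Tnfrsf1a, the main receptor of soluble TNF, had 45.8 ± 3.74 and 51.3 ± 0.860, and Ltbr, the lymphotoxin beta receptor, had 31.3 ± 2.06 and 38.2 ± 0.935. Together they held from 77.5% to 81.0% of the receptor FPKM in WT libraries and from 79.7% to 80.0% in KO libraries. The ranges overlap. Next in both genotypes came Tnfrsf10b, the mouse TRAIL receptor, at 7.85 ± 0.128 FPKM in WT and 8.13 ± 0.242 in KO. Below it the order depended on genotype. In WT Tnfrsf22 followed at 4.58 ± 0.458, Tnfsf12, which encodes TWEAK itself and was the highest ligand, at 4.08 ± 0.365, and Tnfrsf11a at 3.69 ± 0.247, and the ranges of neighbours in this order overlap. In KO Tnfrsf1b followed at 6.94 ± 0.638 and Tnfrsf11b at 5.90 ± 0.257, which had held ranks 10 and 8 in WT.

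**Figure D1:**
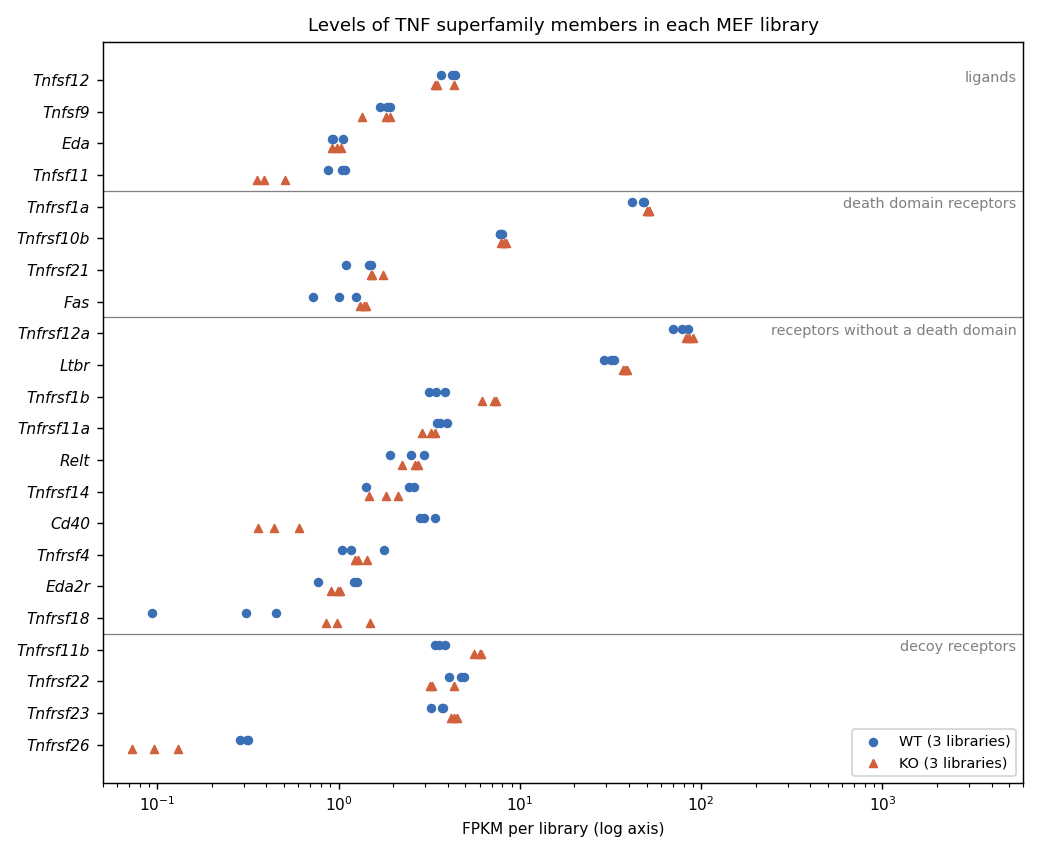
FPKM of 22 members in each library on a log axis, grouped by role, with WT libraries as circles and KO libraries as triangles. Tnfrsf12a, Tnfrsf1a and Ltbr lie above 25 FPKM in all libraries, while no ligand exceeds 5, and the KO triangles of Cd40, Tnfsf11 and Tnfrsf26 lie left of their WT circles.

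At the other end, Cd40lg, Cd70, Tnfsf14 and Edar had no count in any library. A count of 0 allows up to 3 counts in a library. A further 7 members had counts that never exceeded 3 in a library, and 11 of the 17 ligands never exceeded 6. Tnf, the founding cytokine of the family, had 0, 4 and 0 counts in WT and none in KO. Ltb had 0, 6 and 0 in WT and none in KO, and Tnfsf4 had 0, 6 and 0 in WT and 0, 1 and 0 in KO. In WT all counts of these 3 ligands came from WT2 alone, and no fold is given for them. Lta, the neighbour of Tnf, went the other way with 0, 1 and 0 counts in WT and 3, 3 and 4 in KO (edgeR adjusted p = 0.398). Tnfsf15, the ligand TL1A, had 0, 3 and 0 counts in WT and 7, 12 and 2 in KO (edgeR adjusted p = 0.180) and passed the threshold without WT replicate 2. Tnfsf13, the ligand APRIL, had 1, 2 and 3 counts in WT and 6, 2 and 10 in KO (edgeR adjusted p = 0.538). Their levels were at the limit of detection at this depth. Members under 1 CPM are named after their values had been seen.

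Of the 45 members, 41 had counts and were tested, and 7 differed with an adjusted p below 0.05, 4 higher in KO (Tnfrsf1b, Tnfrsf11b, Tnfrsf18, Ltbr) and 3 lower (Cd40, Tnfsf11, Tnfrsf22). Over all 26898 genes tested, 9.00% passed that threshold, 4.97% higher and 4.03% lower. Few silent genes can pass, so the closer background is the 13222 genes with a mean of at least 1 CPM. Of these 17.0% passed (9.08% higher, 7.88% lower), against 7 of 21 members (33.3%) at the same level. DEGs, which also had to exceed 2-fold, were 3 members, Tnfrsf18 higher and Cd40 and Tnfsf11 lower, where DEGs made up 2.42% of all genes tested (1.75% higher, 0.665% lower) and 3.58% of those with at least 1 CPM. The WT and KO ranges did not overlap for 10 of the 21 members (7 higher, 3 lower), or 47.6%, against 34.1% of genes at that level (16.9% higher, 17.2% lower). The median log2 fold change of the 21 was 0.04, against -0.01 for genes at that level. It was 0.15 over 17 receptors and -0.12 over 4 ligands. At an unadjusted p below 0.05, there were 14 of the 41 members tested, against 17.9% of all genes tested and 30.8% of those with at least 1 CPM. Ltb, Tnfsf15, Tnfrsf9 and Tnfrsf26, which are among these 14, had means under 1 CPM. No test was made of the members as a set.

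**Figure D2:**
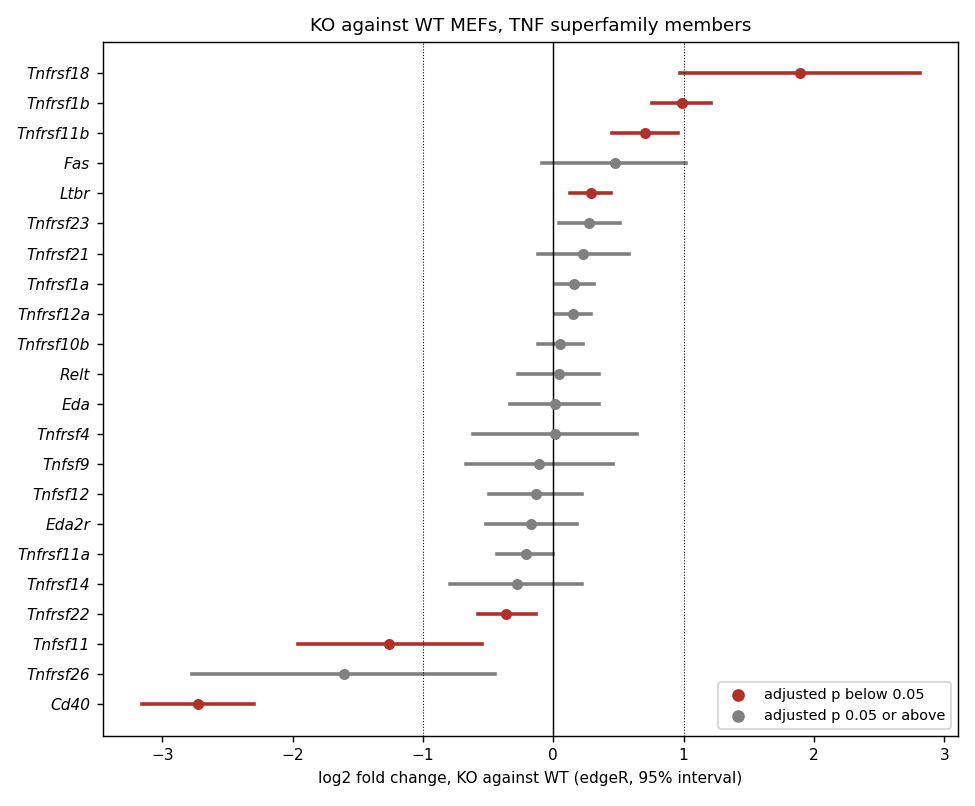
Log2 fold change of KO against WT for 22 members with its 95% interval from the edgeR fit, with an adjusted p below 0.05 in red and dotted lines at a 2-fold change. Cd40 has an interval wholly beyond 2-fold, from -3.16 to -2.30, and Tnfrsf10b, Relt, Eda and Tnfrsf4 lie near 0.

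Cd40 had the largest difference of the 21 members with at least 1 CPM. Its receptor joins antigen-presenting cells to CD40 ligand on T cells and is also made by stromal cells. It had 148, 142 and 181 counts in WT and 26, 25 and 33 in KO, that is 11.6, 10.1 and 9.71 CPM in WT1, WT2 and WT3 and 1.23, 1.50 and 2.06 CPM in KO1, KO2 and KO3. All KO libraries lay far below all WT libraries. The mean fell from 10.5 ± 0.992 to 1.60 ± 0.425 CPM, a 6.62-fold lower level in KO (log2 fold change -2.73, SE 0.22, edgeR adjusted p = 2.24e-36). On the FPKM scale Cd40 went from rank 11 among the members in WT to rank 20 in KO. It passed both thresholds under each of 14 alternative settings, with a log2 fold change from -2.94 to -2.55 as single libraries were left out. Cd40 (ENSMUSG00000017652) spans chr2:164897547-164914868 on GRCm39, and so lies on the chromosome of Mcm8, 32.2 Mb from it.

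**Figure D3:**
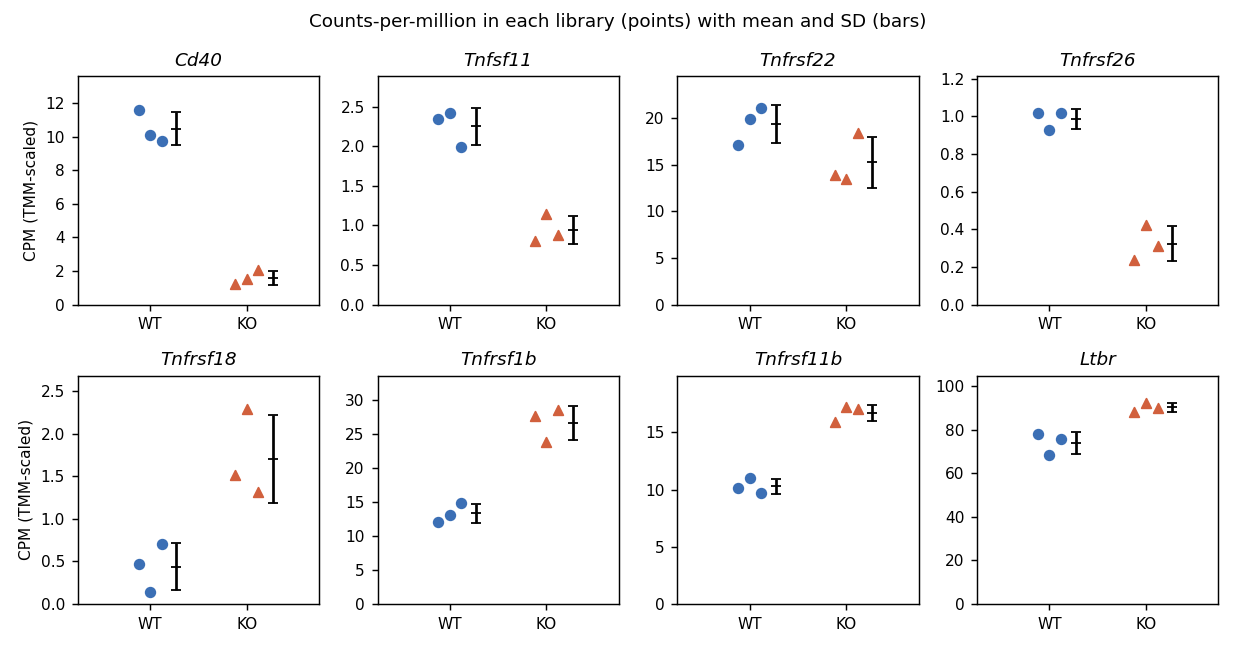
CPM of 8 members in each WT (circles) and KO (triangles) library, with the mean and SD as bars and every axis starting at 0. The genotypes do not overlap in 7 of the 8 panels; in the Tnfrsf22 panel KO3 at 18.4 CPM lies above WT1 at 17.2 CPM.

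Of the TNF receptors, Tnfrsf1b passed the adjusted p threshold and Tnfrsf1a did not. Tnfrsf1b, which encodes the receptor without a death domain that responds best to membrane-bound TNF, had 12.1, 13.1 and 14.9 CPM in WT and 27.6, 23.8 and 28.5 CPM in KO. Its lowest KO library stood above its highest WT library, and the mean rose from 13.4 ± 1.41 to 26.6 ± 2.48 CPM (log2 fold change 0.99, SE 0.11, edgeR adjusted p = 2.89e-16). That is just short of the 2-fold threshold, and without WT replicate 3 it was 1.08 and without KO replicate 2 it was 1.06. Tnfrsf1a, the death domain receptor, had 119 ± 10.0 CPM in WT and 134 ± 2.06 in KO, with ranges of 108 to 126 and 131 to 135 CPM (log2 fold change 0.16, 95% interval 0.02 to 0.31, edgeR adjusted p = 0.183). The ratio of Tnfrsf1b to Tnfrsf1a, in FPKM, was 0.0763 ± 0.00874 in WT and 0.135 ± 0.0132 in KO. Tnfrsf1b (ENSMUSG00000028599) and Tnfrsf8, which is near 0 in these cells, are neighbours on chromosome 4 and together span 101.7 kb.

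Tnfsf11 and Tnfrsf11b are a ligand and its decoy. Tnfsf11 encodes RANKL, which drives the formation of osteoclasts through its receptor RANK, and Tnfrsf11b encodes osteoprotegerin, the secreted decoy that captures RANKL. Tnfsf11 (ENSMUSG00000022015) had 30, 34 and 37 counts in WT and 17, 19 and 14 in KO. All KO libraries were below all WT libraries, and its level fell from 2.25 ± 0.235 to 0.940 ± 0.179 CPM (log2 fold change -1.26, SE 0.36, edgeR adjusted p = 6.68e-03). Without KO replicate 1 it no longer passed the adjusted p threshold. Tnfrsf11b (ENSMUSG00000063727) had 10.1, 11.0 and 9.71 CPM in WT and 15.9, 17.2 and 17.0 CPM in KO, with no overlap (log2 fold change 0.70, SE 0.13, edgeR adjusted p = 2.26e-06). Tnfrsf11a, which encodes RANK, had 22.2 ± 1.45 CPM in WT and 19.1 ± 1.67 in KO (log2 fold change -0.21, edgeR adjusted p = 0.281).

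Within each library the FPKM ratio of Tnfrsf11b to Tnfsf11 was 3.41, 3.59 and 3.88 in WT and 15.7, 11.9 and 15.5 in KO. The means were 3.63 ± 0.237 and 14.4 ± 2.12, and the genotypes stood far apart. This ratio and 3 others were chosen after the values had been seen. For each of the 4 the two-sided exact permutation p was 0.1, the smallest that 3 against 3 libraries allow, and 0.1 after Benjamini-Hochberg adjustment.

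**Figure D4:**
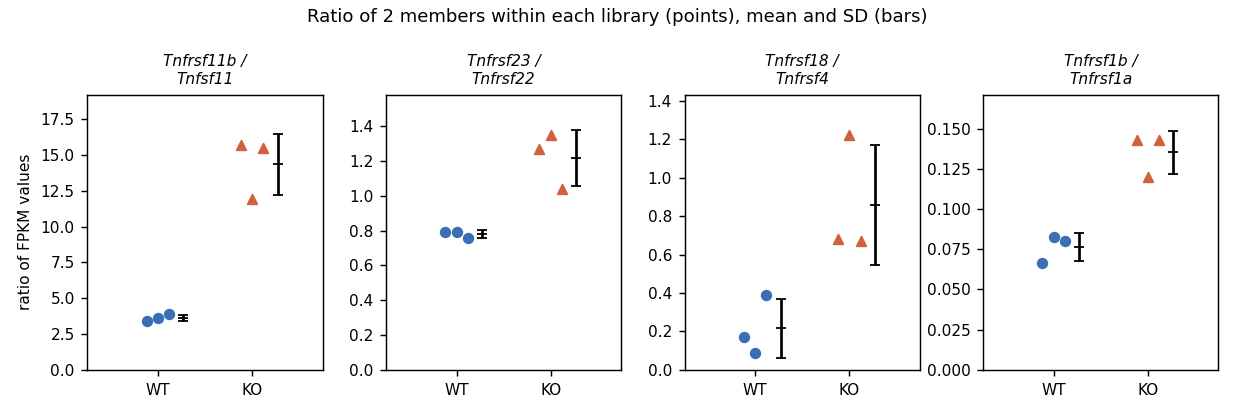
FPKM ratio of 4 pairs of members within each WT (circles) and KO (triangles) library, with the mean and SD as bars. The KO libraries lie above all WT libraries in the 4 panels, with a mean Tnfrsf11b to Tnfsf11 ratio of 14.4 in KO against 3.63 in WT.

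Tnfrsf18 was the one member called a DEG in the upward direction. It encodes GITR, a co-stimulatory receptor of T cells. It had 6, 2 and 13 counts in WT and 32, 38 and 21 in KO, or 0.470, 0.143 and 0.698 CPM against 1.51, 2.28 and 1.31 CPM. Every KO library was above every WT library, although WT libraries spread widely at these counts. The log2 fold change was 1.89 (SE 0.47, edgeR adjusted p = 5.79e-04). Tnfrsf4, which encodes the related receptor OX40 and lies beside Tnfrsf18 in a stretch of 15.1 kb on chromosome 4, had 1.82 ± 0.534 CPM in WT and 1.80 ± 0.157 in KO (log2 fold change 0.01, 95% interval -0.62 to 0.64). The FPKM ratio of Tnfrsf18 to Tnfrsf4 was 0.217 ± 0.154 in WT and 0.857 ± 0.311 in KO.

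Ltbr, which activates the non-canonical NF-kB pathway on binding lymphotoxin or LIGHT, had a small difference measured closely. It had 77.9, 68.5 and 75.7 CPM in WT and 88.3, 92.4 and 90.3 CPM in KO, without overlap (log2 fold change 0.29, SE 0.08, edgeR adjusted p = 4.13e-03). The call was lost without WT replicate 2 and without KO replicate 2. Ltbr, Tnfrsf1a and Cd27 form a group within 129.9 kb on chromosome 6, and Cd27, a lymphocyte receptor, stayed at 2 to 5 counts per library. The ligands of Ltbr were at or near 0: Tnfsf14 (LIGHT) had no count, and Ltb had counts in WT2 alone.

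On chromosome 7, Tnfrsf22, Tnfrsf23 and Tnfrsf26 lie within 78.2 kb. Tnfrsf22 and Tnfrsf23 are closely related decoy receptors of TRAIL. Tnfrsf22 had 17.2, 20.0 and 21.1 CPM in WT and 13.9, 13.5 and 18.4 CPM in KO (log2 fold change -0.36, SE 0.12, edgeR adjusted p = 0.0292). KO3 lay inside the WT range, and the call was lost under 10 of 14 alternatives, including DESeq2. Tnfrsf23 had 14.2 ± 1.25 CPM in WT and 17.3 ± 0.687 in KO (log2 fold change 0.27, edgeR adjusted p = 0.171). The ratio of Tnfrsf23 to Tnfrsf22 was 0.781 ± 0.0218 in WT and 1.22 ± 0.163 in KO, while the sum of both, chosen after the values had been seen, was 33.6 ± 3.24 CPM in WT and 32.5 ± 3.35 in KO. How the counting treated reads that match both genes is not given, so the split between them is uncertain. Tnfrsf26, the outermost gene of the group, was described after its values had been seen. It had 13, 13 and 19 counts in WT and 5, 7 and 5 in KO, without overlap (log2 fold change -1.61, SE 0.59, edgeR adjusted p = 0.0554), and passed the threshold where genes with few counts were left out of the fit (adjusted p = 0.0248 with filterByExpr).

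The death domain receptors did not pass the adjusted p threshold, 0 of 6 tested, with 1 at an unadjusted p below 0.05. DESeq2 gave 0 as well. With 9.00% of all genes tested past it, a count of 0 among so few genes is near the background, and Tnfrsf1a passed without WT replicate 1 (edgeR adjusted p = 8.77e-03). Tnfrsf10b had 42.9 ± 0.620 CPM in WT and 44.5 ± 1.31 in KO, and its 95% interval of -0.12 to 0.23 lies within 2-fold. Fas, the receptor of Fas ligand and a known p53 target, had 2.59, 1.50 and 2.09 CPM in WT and 2.93, 2.70 and 2.87 CPM in KO. These ranges do not overlap, but the log2 fold change of 0.47 had an interval of -0.09 to 1.02 (edgeR adjusted p = 0.401). Tnfrsf21, known as DR6, had 5.63 ± 0.944 and 6.62 ± 0.601 CPM (log2 fold change 0.23). Tnfrsf25 had 4 counts in every WT library and 10, 9 and 11 in KO (edgeR adjusted p = 0.475). Ngfr, the neurotrophin receptor of neural crest cells, had 2 counts in all.

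TWEAK and its receptor were both present. Tnfrsf12a had 151 ± 14.3 CPM in WT and 167 ± 7.39 in KO (log2 fold change 0.15, 95% interval 0.01 to 0.29, edgeR adjusted p = 0.241). Without WT replicate 1 it and Tnfrsf1a passed the threshold, with log2 fold changes of 0.21 and 0.19. WT1 also differed from WT2 and WT3 in Xist, at 940 CPM against 1359 and 1290. Tnfsf12 had 6.21 ± 0.568 and 5.70 ± 0.797 CPM (log2 fold change -0.13). Its counts are uncertain, since the read-through gene Tnfsfm13 and the antisense gene Tnfsf13os lie over Tnfsf12 and its neighbour Tnfsf13 on chromosome 11, and the strand setting of the counting is not given. Those genes had at most 11 and 13 counts in a library, against 71 to 120 for Tnfsf12. Tnfsf9, the ligand of the T-cell receptor Tnfrsf9, had 2.37 ± 0.156 and 2.20 ± 0.402 CPM, while Tnfrsf9 had 0, 0 and 6 counts in WT and 11, 6 and 8 in KO, without overlap in CPM (WT3 at 0.322, KO2 at 0.361, edgeR adjusted p = 0.236), and passed the threshold without WT replicate 3. Relt had 8.11 ± 1.73 and 8.41 ± 0.881 CPM, and Tnfrsf14, known as HVEM, had 3.12 ± 0.944 and 2.61 ± 0.469.

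Eda and Eda2r lie on the X chromosome with Cd40lg. Eda, which encodes ectodysplasin, had 6.64 ± 0.495 CPM in WT and 6.69 ± 0.373 in KO, and Eda2r, the receptor of its A2 form, had 6.42 ± 1.63 and 5.76 ± 0.342. The groups overlapped for both. The libraries held both Xist, the RNA of the inactive X chromosome, and Y-linked RNA. Xist went from 1196 ± 224 CPM in WT to 481 ± 11.4 in KO, and Ddx3y, Eif2s3y, Uty and Kdm5d had log2 fold changes of 2.46, 1.95, 2.23 and 2.14. These sex chromosome RNAs moved with genotype, and the part of the cultures' sex makeup in the member results was not tested.

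Of the 34 members tested that did not pass the adjusted p threshold, 13 had a 95% interval within 2-fold. For the other 21 the counts do not bound the difference that closely. Many members are neighbours in the genome: 22 stand in 9 groups with gaps of at most 200 kb. No group held more than 1 member past the threshold.

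Genes around the receptors were taken in 7 lists of 95 genes, of which 92 were tested. In all 13 passed the adjusted p threshold, 8 higher and 5 lower, and 5 of those higher were DEGs. All 13 were among the 82 genes with at least 1 CPM, of which they make up 15.9%, near the 17.0% of all genes at that level. At an unadjusted p below 0.05 there were 25 of the 82 (30.5%), against 30.8% of all genes at that level (15.5% higher, 15.2% lower). The median log2 fold change of the 82 was 0.01. Adaptors and kinases, which link receptors to their pathways, had 1 of 21 higher and 1 lower with edgeR and with DESeq2, and of the 19 with at least 1 CPM 8 had an unadjusted p below 0.05 (42.1%), 3 higher and 5 lower. Map3k5, the stress kinase ASK1, rose from 0.500 ± 0.219 to 1.88 ± 0.741 CPM (log2 fold change 1.85, SE 0.44, edgeR adjusted p = 2.56e-04), and Traf6, a ubiquitin ligase used by CD40 and RANK, fell by 0.30 on the log2 scale (SE 0.09, edgeR adjusted p = 0.0147). The Traf6 call was lost under 4 of 14 alternatives.

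NF-kB subunits and inhibitors had 4 of 9 higher and 0 lower with edgeR, at a median log2 fold change of 0.18. That is 44.4% of the list, against 17.0% of all genes with at least 1 CPM (9.08% higher), with no test of the list. DESeq2 gave 3 higher and 0 lower, and 5 were higher and 0 lower at an unadjusted p below 0.05 (55.6%, against 30.8%). Bcl3, an atypical inhibitor that can also co-activate transcription, had 6.51, 6.34 and 6.17 CPM in WT and 17.9, 18.9 and 17.6 CPM in KO, a rise of 1.52 on the log2 scale (SE 0.14, edgeR adjusted p = 4.19e-25). Nfkbie, which encodes the inhibitor I-kappa-B epsilon, had 2.97 ± 0.349 and 8.65 ± 0.436 CPM (log2 fold change 1.55, SE 0.20, edgeR adjusted p = 1.15e-13). Relb, the subunit of the non-canonical pathway, had 16.5, 16.4 and 16.7 CPM in WT and 25.8, 23.4 and 27.3 in KO (log2 fold change 0.62, SE 0.11, edgeR adjusted p = 6.26e-07). Every KO library stood above every WT library for these 3 genes. Nfkbia had 18.1 ± 2.64 and 22.8 ± 2.29 CPM (log2 fold change 0.33, edgeR adjusted p = 0.033), a call lost under 11 of 14 alternatives.

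**Figure D5:**
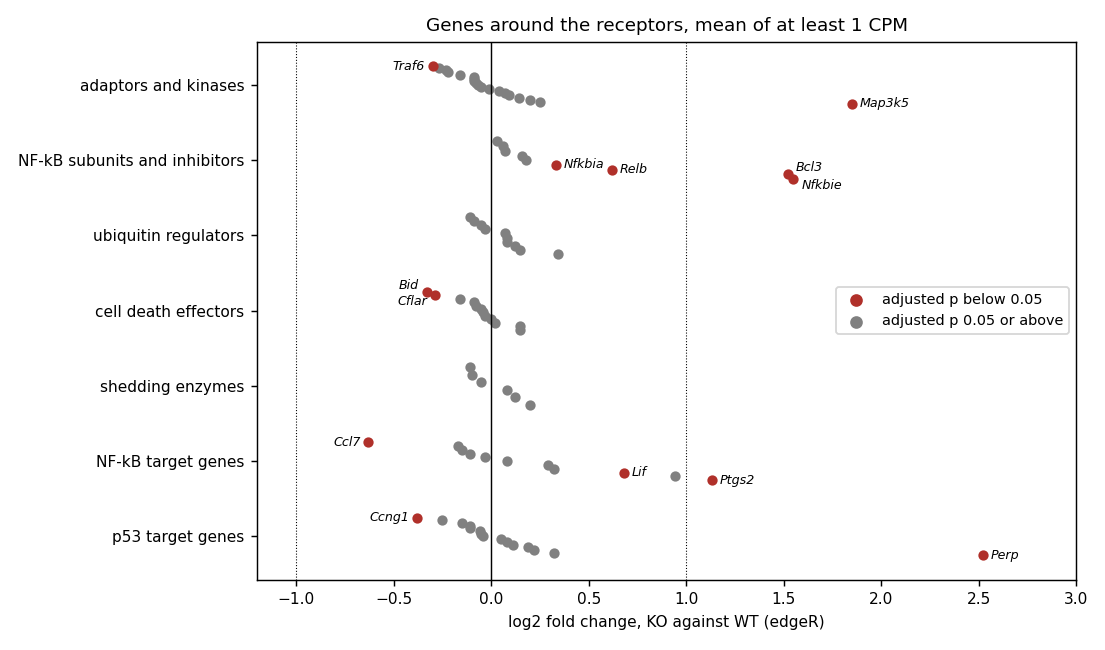
Log2 fold change of KO against WT for the genes of 7 lists with a mean of at least 1 CPM, each point a gene, with an adjusted p below 0.05 in red and named, and dotted lines at a 2-fold change. Most points lie between the dotted lines, and Bcl3 at 1.52, Nfkbie at 1.55, Map3k5 at 1.85, Ptgs2 at 1.13 and Perp at 2.52 lie beyond 2-fold.

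NF-kB target genes had 2 higher and 1 lower of 18 tested, or 3 of the 11 with at least 1 CPM (27.3%, against 17.0% of all genes at that level). Ptgs2, which encodes the prostaglandin enzyme COX-2, rose from 20.1 ± 3.12 to 43.6 ± 2.35 CPM (log2 fold change 1.13, SE 0.10, edgeR adjusted p = 7.31e-28). Lif, a cytokine of the interleukin-6 family, rose by 0.68 (SE 0.17, edgeR adjusted p = 1.24e-03), and the chemokine gene Ccl7 fell by 0.63 (SE 0.15, edgeR adjusted p = 8.38e-04). Icam1, at a log2 fold change of 0.94, and Vcam1, at -0.17, had unadjusted p-values below 0.05 but edgeR adjusted p-values of 0.143 and 0.136. The ubiquitin regulators that edit receptor complexes had 0 of 10 past the threshold, and the enzymes that shed TNF and its receptors had 0 of 6, with edgeR and with DESeq2, and none of them had an unadjusted p below 0.05. Cell death effectors had 0 higher and 2 lower of 12 with edgeR and with DESeq2, and 0 higher and 3 lower at an unadjusted p below 0.05. Those shares, 16.7% and 25.0%, lie near or below the 17.0% and 30.8% of all genes with at least 1 CPM. Cflar, which encodes the caspase-8 inhibitor FLIP, fell by 0.29 (SE 0.08, edgeR adjusted p = 5.64e-03), and Bid, a substrate of caspase-8, fell by 0.33 (SE 0.09, edgeR adjusted p = 3.77e-03). The Cflar call was lost without WT replicate 3 and without KO replicate 1, and the Bid call without KO replicate 2. Of 16 p53 targets, Perp was higher (log2 fold change 2.52, SE 0.27, edgeR adjusted p = 9.03e-21) and Ccng1 lower (log2 fold change -0.38, SE 0.07, edgeR adjusted p = 9.51e-06). No other p53 target passed. These were 2 of the 15 with at least 1 CPM (13.3%), below the 17.0% of all genes at that level. At an unadjusted p below 0.05 the share was 26.7%, against 30.8%.

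Marker genes of the cells that MEF cultures can hold were read beside these values. Fibroblast markers summed to between 24652 and 29448 CPM. Dcn and Lum were far lower than the sum, at 12.5 and 1.18 CPM in WT and 14.1 and 1.72 in KO. With edgeR 3 of 10 were higher and 3 lower in KO, and with DESeq2 2 were higher and 3 lower. The edgeR share was 60.0%, against 17.0% of all genes with at least 1 CPM. Col1a1 rose by 0.20, Col3a1 by 0.29 and Fn1 by 0.29 on the log2 scale. Thy1 fell by 1.03, Pdgfrb by 0.74 and Vim by 0.19. Immune markers summed to between 3.54 and 5.90 CPM, with 6 of 14 at 0 in all libraries, 11 of 14 under 0.1 CPM and 0 past the threshold with edgeR or DESeq2 (1 at an unadjusted p below 0.05). Ptprc, which defines blood cells, had no count in 5 of 6 libraries. Mesothelial markers summed to between 6.42 and 7.37 CPM in WT and between 49.3 and 56.0 in KO, through Msln (log2 fold change 3.95) and Krt19 (0.85). These were 2 of 7 markers past the threshold and the only 2 with at least 1 CPM, where 17.0% of all genes passed. Of the other mesothelial markers, Lrrn4 and Muc16 had no count, Upk3b had 2 counts in KO2 alone, Upk1b had 3, 2 and 0 counts in WT and none in KO, and Wt1 had a log2 fold change of 0.26 (edgeR adjusted p = 0.907). Epithelial markers summed to 1.14 to 1.49 CPM in WT and 6.07 to 7.31 in KO, led by Krt18 and Krt8. Endothelial markers had 1 of 8 higher (Erg), and Schwann and neural crest markers 1 of 7 lower (Mbp), and DESeq2 gave 0 in either list. Over all genes 9.00% of those tested passed, and 17.0% of those with at least 1 CPM. Counts of 1 in lists this short cannot be told from these shares. The part of these cells in the member results was not tested.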

How the data were processed

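The authors trimmed the read pairs, aligned them with Hisat2 2.0.5 to the Ensembl mouse genome, assigned them to genes with featureCounts 1.5.0-p3 and deposited the raw counts. The authors also deposited FPKM values, which scale the counts to gene length and library. Library preparation used the NEBNext Ultra kit. Coordinates of genes come from the deposited files. The submitters' processing notes name GRCm38, but 0 of 45 members had the coordinates of the GRCm38 annotation GENCODE M21, and GRCm39 is the assembly of the Ensembl release in the study's methods. Promoters come from RefSeq on GRCm38.p6.

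Counts were TMM-scaled and KO was compared with WT by the quasi-likelihood test of edgeR 4.0.16 (R 4.3.3, limma 3.58.1), over 26898 genes that were above 0 FPKM in some library, with Benjamini-Hochberg adjustment over all of them. DEGs were genes past 2-fold with an adjusted p below 0.05. The prior degrees of freedom were infinite: each gene's spread was set by the trend, and p-values are too small for genes more variable than it. The size of small p-values also depended on the filter. With filterByExpr the edgeR adjusted p of Mcm8 was 2.44e-06, against 4.45e-26 in the main fit. For Tnfrsf11b it was 5.12e-04, against 2.26e-06. Intervals are 95% from the SE. The fit was run on simulated data of KO against WT: edgeR recovered 200 of 200 changed genes among 26898 with 3 false calls. Recovery of differences as small as that of Ltbr, or at counts as low as those of Tnfrsf18, was not tested. TMM factors lay between 0.98 and 1.012, and RLE scaling moved the median log2 fold change by -0.00069. Intervals include the spread fitted over libraries, whereas the floor of 3 counts covers counting error only. No library was left out of the main values.

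Named were all members with a mean of at least 1 CPM in a genotype or an adjusted p below 0.05, and in each list up to 4 genes past that threshold. The members and lists were chosen with earlier results of these data known. Alternatives were DESeq2 1.42.0, a test against 2-fold, RLE scaling, 3 other filters, the replicate number as a block, and each library left out. limma-voom was added after seeing the data. Figures were drawn with matplotlib 3.10.9. The raw reads, splicing and other assays of the study were not analysed here.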

Additional observations from a re-analysis of the deposited data

How the results depend on the processing

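Members that passed the adjusted p threshold were Cd40 under each of 14 alternatives, and Tnfrsf18, Tnfrsf1b and Tnfrsf11b under all but the test against a 2-fold change. That test left 157 genes higher and 43 lower of all genes, where the main test called 472 and 179. It left 0 members higher and 1 lower, by either count of members, and 2 list genes higher and 0 lower. With single libraries left out, all genes gave 388 to 475 higher and 157 to 196 lower, and members called DEGs were 1 to 3 higher and 1 to 2 lower. Members past the adjusted p alone were 3 to 6 higher and 1 to 3 lower, and list genes 7 to 9 higher and 3 to 6 lower. The lowest counts of lower members and list genes, 1 and 3, came without KO replicate 1, and the 3 members called higher came without WT replicate 3. DESeq2 called 356 genes higher and 130 lower.

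The sign turned for 4 members near 0. With single libraries left out, Eda ranged from -0.02 to 0.07, Tnfsf9 from -0.19 to 0.03, Relt from -0.10 to 0.18 and Tnfrsf4 from -0.13 to 0.25, and Tnfrsf4 was -0.0022 with DESeq2. Of the other values of 22 members under the alternatives, 275 kept their direction and their side of the threshold, most of them for members that had not passed it, 18 fell short of it and 5 newly passed it. The cause was not tested. Libraries of the same number did not deviate together (r = -0.011, -0.008 and 0.045 over 13222 genes), and with the replicate number as a block 445 genes were higher and 158 lower, with the same 7 members past the threshold. Genes with few counts, most ligands among them, are limited by depth.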
